A study of Mus musculus with 8 samples.

Results

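The transcription factor NRF2 (gene *Nfe2l2*), its inhibitor KEAP1 (*Keap1*) and 8 genes of antioxidant and thiol defence that NRF2 is known to drive were followed in resting peritoneal macrophages (pMacs) of mice with and without CD1d. The 8 target genes were *Nqo1*, *Gclc*, *Gclm*, *Gsr*, *Gpx4*, *Txnrd1*, *Prdx1* and *Srxn1*. Members were chosen by name and matched to Ensembl gene IDs through an annotation of the mouse genome GRCm38, and 10 of 10 were found among the 48795 genes of the files. All 10 passed the filter on low counts, which left 13040 genes for testing.

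Polyadenylated RNA was sequenced from pMacs of 4 WT mice and 4 CD1d-KO mice, 1 library per mouse. The cells were taken from peritoneal lavage and given no treatment. The study states that they were purified, but its methods on sequencing do not say how. WT mice were C57BL/6 or, by the text on this experiment, littermates. The knockout is present in every cell of the animal. CD1d-KO mice also lack the NKT cells that depend on CD1d, so a direct loss of CD1d in the macrophage and the absence of NKT cells cannot be told apart here. The study's methods list both a germline deletion of *Cd1d1* with *Cd1d2* and a floxed CD1d line crossed to PGK-Cre, a broadly active Cre, and the labels do not say which of them gave these mice. The methods state matching for age and sex. Both genotypes have libraries numbered 1, 2, 3 and 5, and same-numbered libraries were treated as 4 pairs.

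In resting cells KEAP1 binds NRF2 and hands it to the proteasome. Oxidants and electrophiles react with cysteines of KEAP1, NRF2 then accumulates and, with a small MAF protein as partner, binds antioxidant response elements in the promoters of its targets. The control is therefore mostly at the level of the NRF2 protein, which these data do not measure. The targets supply a pair of linked thiol systems: glutathione, which is made, reduced again and used against peroxides, and thioredoxin with the peroxiredoxins. In macrophages these systems buffer the oxidants that the cells make themselves.

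The core of the antioxidant response element can be written TGACNNNGC, with N for any base. It was looked for on both strands in the 300 bases from 250 before to 50 after each annotated start site (RefSeq, GRCm38.p6). The RefSeq table held 8 of the 10 genes, and had no entry for *Gclc* and *Gsr*. The motif was present for 5 of these 8 genes, against 14% of the 27025 genes in the table and 12.4% of its 32851 promoter windows. The match is a description of the letters only. The upstream sequences of *Prdx1*, *Txnrd1*, *Gclm* and *Nfe2l2* are shown because they carry the match, read 5′ to 3′ along the gene, with the motif in capitals on whichever strand it was found and with annotated exons left off.
Prdx1, chr4:116685349-116685543, plus strand: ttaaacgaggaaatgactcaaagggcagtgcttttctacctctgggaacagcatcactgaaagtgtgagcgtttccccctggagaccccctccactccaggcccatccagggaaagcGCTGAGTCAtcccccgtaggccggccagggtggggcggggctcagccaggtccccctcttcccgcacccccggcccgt
Txnrd1, second of 3 start sites, chr10:82858956-82859178, plus strand: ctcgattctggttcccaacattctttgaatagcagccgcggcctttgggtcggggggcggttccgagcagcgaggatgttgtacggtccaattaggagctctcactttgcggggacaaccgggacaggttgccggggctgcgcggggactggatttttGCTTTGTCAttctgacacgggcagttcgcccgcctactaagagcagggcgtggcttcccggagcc
Gclm, chr3:122245307-122245556, plus strand: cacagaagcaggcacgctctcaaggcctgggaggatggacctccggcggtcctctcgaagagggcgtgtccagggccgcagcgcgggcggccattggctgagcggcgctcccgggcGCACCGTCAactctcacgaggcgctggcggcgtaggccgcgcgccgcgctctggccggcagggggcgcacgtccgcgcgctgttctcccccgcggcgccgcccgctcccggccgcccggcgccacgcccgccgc
Nfe2l2, chr2:75704664-75704913, minus strand: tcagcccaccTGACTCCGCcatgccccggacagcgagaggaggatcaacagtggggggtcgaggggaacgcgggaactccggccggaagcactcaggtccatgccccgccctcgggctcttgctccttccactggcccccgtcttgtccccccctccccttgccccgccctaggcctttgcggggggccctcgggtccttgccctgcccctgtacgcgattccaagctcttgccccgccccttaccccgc
*Srxn1* held the motif just after its start site, in the first exon, and only the site is shown.
Srxn1, chr2:152105542-152105570, plus strand: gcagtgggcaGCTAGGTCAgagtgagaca

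Read on its own strand, the element of *Prdx1* is TGACTCAGC, which also contains TGACTCA, the motif of AP-1 factors. TGACTCA itself was present in 5.2% of all promoter windows, and had 2 matches each in those of *Prdx1* and *Srxn1*. The windows of *Keap1*, *Nqo1* and *Gpx4* held no TGACNNNGC, which says only that these letters are absent from the 300 bases searched.

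*Cd1d1*, which encodes CD1d, checks the labels. It had 68.2, 175, 96.1 and 141 normalized counts (the counts after scaling every library to one common size) in WT replicates 1, 2, 3 and 5. The library labelled CD1d-KO replicate 1 had 60.7, and the remaining CD1d-KO libraries had at most 1.14. *Cd1d2*, the neighbouring copy, had at most 3.22 in any library. CD1d-KO replicate 1 thus goes against its label, and the values of the NRF2 genes are given with this library. The fold changes of the target genes are also given without pair 1, as are the adjusted p-values of some genes. Counts over the lists of other pathway genes include pair 1.

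Levels between genes were compared in TPM, a share of all transcripts that RSEM corrects for transcript length. *Prdx1*, the cytosolic peroxiredoxin that reduces hydrogen peroxide, stood first with 4665 to 6977 TPM in the WT libraries. It ranked 16 among the 13040 tested genes by mean WT level. *Txnrd1* (686 to 1077 TPM), *Gclm* (670.4 to 989.9) and *Srxn1* (601 to 1037) came next, and their ranges overlapped, so that no order among these 3 can be given. All 3 were below *Prdx1* in 8 of 8 libraries. *Gsr* (287 to 396 TPM) and *Nfe2l2* (299.9 to 375) followed, again with overlapping ranges, and *Gpx4* (186 to 313) overlapped with *Nfe2l2*. *Gclc* (75.9 to 133 TPM) stood apart from both of its neighbours in the order. *Keap1* (32.1 to 40.5) and *Nqo1* (18.8 to 32.4) had the lowest levels and overlapped in WT, although *Keap1* was above *Nqo1* in each of the 8 libraries. The 2 subunits of glutamate-cysteine ligase were thus unequal at the RNA level, with the modifier subunit *Gclm* at a WT mean of 828 TPM and the catalytic subunit *Gclc* at 98.5 TPM.

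**Figure D1:**
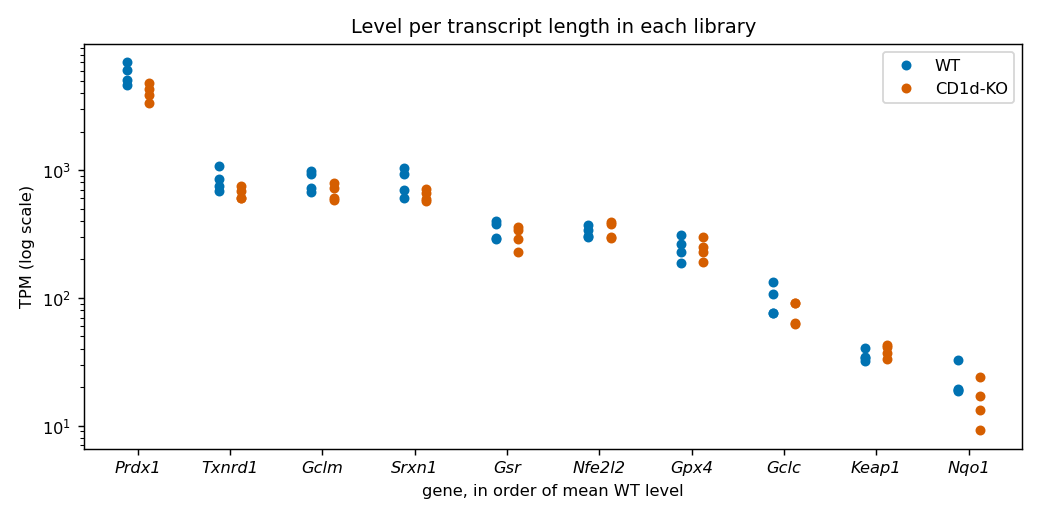
TPM (log scale) of each gene in the 4 WT and 4 CD1d-KO libraries, 1 point per library, with genes in the order of the mean WT level. *Prdx1* lies between 3372 and 6977 TPM in all libraries, and *Nqo1* between 9.16 and 32.4 TPM.

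The comparison of genotypes asked whether the RNA of these genes differed between CD1d-KO and WT pMacs. In short, *Nfe2l2* and *Keap1* were within 0.07 on the log2 scale of equal levels, and all 8 target genes had a fitted log2 fold change below 0 in CD1d-KO pMacs. The lowest values were those of *Nqo1* (-0.53, standard error, SE, 0.20) and *Prdx1* (-0.47, SE 0.10). None of these differences passed the test. The test was edgeR by quasi-likelihood, and p-values were adjusted (Benjamini-Hochberg) over all tested genes and read at the cut-offs of the study, 0.01 for the adjusted p and 1.5 for the fold. By it 0 of the 10 genes were called, against 0.0383% of all tested genes (5 genes, all higher in CD1d-KO). The count at an unadjusted p under 0.05 was 5 of 10, with all 5 lower in CD1d-KO. Of all tested genes, 5.01% were lower and 7.35% higher at this level. The 10 genes were chosen with earlier results of these data known, so these shares are a description only. DESeq2 called 0 of the 10 as well, against 0.873% of the genes to which it gave an adjusted p. With it 2 of the 10 (*Prdx1* and *Txnrd1*) were under 0.05, against 2.53%. *Cd1d1* itself was not called by edgeR, at a log2 fold change of -3.42 (SE 1.04, adjusted p = 0.233) with CD1d-KO replicate 1 included. DESeq2 gave *Cd1d1* an adjusted p of 0.00302. The lack of an edgeR call therefore does not show equal RNA levels. DESeq2 was the tool of the study, which reported many more genes at these cut-offs than edgeR called here, in both directions. The median log2 fold change of the 10 genes was -0.29, and that of all tested genes 0.00. Without replicate 1, where *Cd1d1* RNA was present in both genotypes, the median of the 10 was -0.24, and 0 of the 10 were called. The smallest edgeR adjusted p of a member was then 0.374 (*Prdx1*). The targets were then at -0.46 (*Prdx1*), -0.40 (*Nqo1*), -0.28 (*Txnrd1* and *Srxn1*), -0.27 (*Gclc*), -0.20 (*Gclm*), -0.14 (*Gpx4*) and -0.11 (*Gsr*), 8 of 8 below 0. Bulk RNA cannot tell fewer cells of a type from less RNA per cell.

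**Figure D2:**
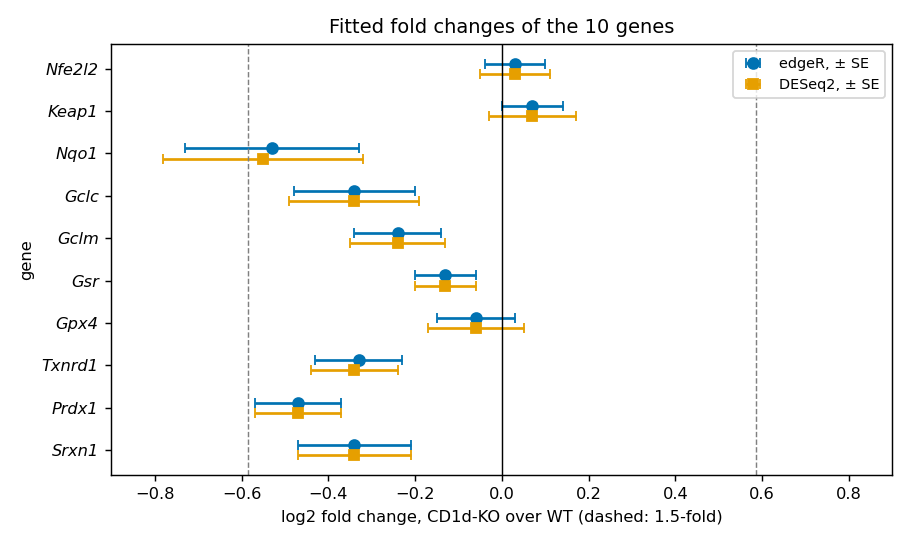
Log2 fold change (CD1d-KO over WT) of each gene with its standard error, from edgeR (circles) and DESeq2 (squares), with dashed lines at 1.5-fold in either direction. All 8 target genes lie below 0, and no estimate reaches the line at 1.5-fold.

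The control genes come first. *Nfe2l2* (ENSMUSG00000015839) is found at 75675513 to 75704641 on chromosome 2 (GRCm38). The normalized counts were 6082, 7726, 9276 and 8031 in WT replicates 1, 2, 3 and 5, and 6157, 7325, 10311 and 8247 in the CD1d-KO replicates with these numbers. Replicate 1 was the lowest and replicate 3 the highest in both genotypes, and the genotypes overlapped fully. The log2 fold change was 0.03 (SE 0.07, edgeR adjusted p = 0.909), and 3 of 4 pairs were higher in CD1d-KO. *Keap1* (ENSMUSG00000003308, chromosome 9 from 21229730 to 21239361) had 832, 1115, 1263 and 992 normalized counts in WT and 831, 1218, 1223 and 1152 in CD1d-KO replicates 1, 2, 3 and 5. Here too replicate 1 was lowest and replicate 3 highest in each genotype. On the log2 scale the genotypes differed by 0.07 (SE 0.07, edgeR adjusted p = 0.736), with 2 pairs higher and 2 lower. An antisense gene, *Gm16754*, overlaps *Keap1*, and held at most 79.7 counts in a library. *Gm17494* overlaps *Gclm* on the opposite strand (at most 276 counts) and *Eid3* overlaps *Txnrd1* on the same strand (at most 338), and whether the counting used strand is not given in the sources used here.

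*Nqo1* (ENSMUSG00000003849, chromosome 8 from 107388225 to 107403206) encodes a quinone reductase that is a standard readout of NRF2 activity. Normalized counts were 412, 301, 289.6 and 287 in WT replicates 1, 2, 3 and 5, and 223, 373, 150.4 and 182 in CD1d-KO. The CD1d-KO libraries 1, 3 and 5 were below every WT library, and CD1d-KO replicate 2 was above 3 of the WT libraries. The mean was 322 ± 60.2 in WT and 232 ± 98.4 in CD1d-KO pMacs (SD, n = 4 mice each). The log2 fold change of -0.53 (SE 0.20) had an adjusted p of 0.345 from edgeR and 0.317 from DESeq2. Without replicate 2 the log2 fold change was -0.83 and the adjusted p 0.0264 from edgeR, the only value under 0.05 that leaving out a pair gave for any of the 10 genes.

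Glutathione is built by glutamate-cysteine ligase and glutathione synthetase, kept reduced by glutathione reductase and used by glutathione peroxidases. *Gclc* (ENSMUSG00000032350, chromosome 9 from 77754535 to 77794485), the catalytic subunit of the ligase, had 3846, 2718, 3793 and 2557 normalized counts in WT replicates 1, 2, 3 and 5. In CD1d-KO it had 2681, 3208, 2343 and 1982. WT replicates 1 and 3 stood above all CD1d-KO libraries, while WT replicates 2 and 5 lay within their range. The log2 fold change came to -0.34 (SE 0.14, edgeR adjusted p = 0.396), with -0.53 without replicate 2 (adjusted p = 0.0533) and -0.22 without replicate 3. *Gclm* (ENSMUSG00000028124), the modifier subunit, is encoded at 122245557 to 122270732 on chromosome 3, and *Cd1d1* is 35.2 Mb away. It had 10736, 8022, 11588 and 8003 normalized counts in WT and 8513, 8456, 8201 and 7014 in CD1d-KO replicates 1, 2, 3 and 5. The pattern over the WT mice was that of *Gclc*, with replicates 1 and 3 high. The fitted log2 difference was -0.24 (SE 0.10, edgeR adjusted p = 0.406), and -0.15 without replicate 3. Both subunits were lower in CD1d-KO in 3 of 4 pairs and higher in pair 2.

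*Gsr* (ENSMUSG00000031584, chromosome 8 from 33652523 to 33698163), glutathione reductase, had 5775, 7007, 5451 and 4965 normalized counts in WT and 5148, 6823, 4944 and 4448 in CD1d-KO replicates 1, 2, 3 and 5. The genotypes overlapped, but each CD1d-KO library was below the WT library of its number, with log2 ratios of -0.04 to -0.17. On the log2 scale the difference was -0.13 (SE 0.07, edgeR adjusted p = 0.507). *Gpx4* (ENSMUSG00000075706, chromosome 10 from 80047166 to 80056439), the selenoenzyme that reduces lipid peroxides in membranes and holds off ferroptosis, had 1597, 1726, 1480 and 1911 normalized counts in WT. In CD1d-KO it had 1796, 1487, 1548 and 1592. Pairs 1 and 3 were higher and pairs 2 and 5 lower in CD1d-KO, and the log2 fold change was -0.06 (SE 0.09, edgeR adjusted p = 0.842).

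By normalized counts, the thioredoxin branch held the pair of genes in which no CD1d-KO library reached a WT library. In TPM the genotypes overlapped for both genes. *Txnrd1* had 600.5 to 746 TPM in CD1d-KO against 686 to 1077 in WT, and *Prdx1* 3372 to 4848 against 4665 to 6977. *Txnrd1* (ENSMUSG00000020250, chromosome 10 from 82833951 to 82897712), cytosolic thioredoxin reductase, had 31015, 24498, 29975 and 25025 normalized counts in WT and 21999, 24184, 22335 and 18971 in CD1d-KO replicates 1, 2, 3 and 5. The highest CD1d-KO library, replicate 2, was just under the lowest WT library, which was also replicate 2. Across the pairs the fitted log2 difference was -0.33 (SE 0.10, edgeR adjusted p = 0.229, DESeq2 adjusted p = 0.0407). *Prdx1* (ENSMUSG00000028691, chromosome 4 from 116685544 to 116700822) had 68281, 56460, 72375 and 59060 normalized counts in WT and 47563, 48145, 43240 and 44955 in CD1d-KO. These groups were further apart, and the CD1d-KO libraries were close to each other (45976 ± 2291, SD, n = 4) while the WT libraries varied more (64044 ± 7521, SD, n = 4). The log2 fold change of -0.47 (SE 0.10), a difference of -27.9% by the fit, had an adjusted p of 0.137 from edgeR and of 5.32e-04 from DESeq2. It was under the 1.5-fold threshold with both tools. In these scaled counts 0.913% of all tested genes had every CD1d-KO library below every WT library, and 2 of the 10 members did.

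*Srxn1* (ENSMUSG00000032802, chromosome 2 from 152105516 to 152111376), sulfiredoxin, restores peroxiredoxins whose cysteine has been overoxidized. It had 24352, 17526, 26727 and 18946 normalized counts in WT and 17017, 18925, 17226 and 15157 in CD1d-KO replicates 1, 2, 3 and 5. As with *Gclc* and *Gclm*, WT replicates 1 and 3 were well above all CD1d-KO libraries, while WT replicate 5 was just above the highest of them and WT replicate 2 within their range. The log2 estimate was -0.34 (SE 0.13, edgeR adjusted p = 0.329).

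**Figure D3:**
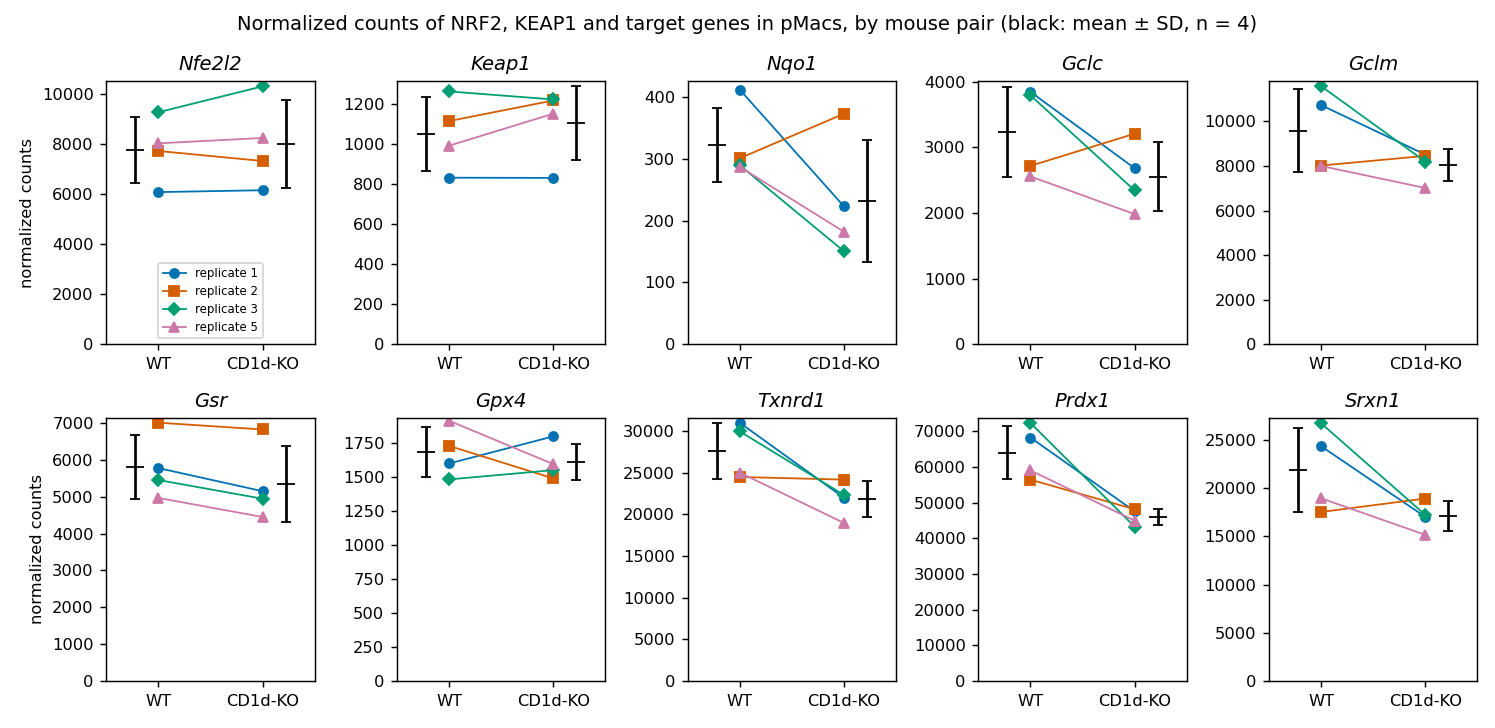
Normalized counts of the 10 genes in each library, with lines joining the WT and CD1d-KO libraries of the same number and black bars for the mean and SD (n = 4). Every CD1d-KO library is below every WT library for *Txnrd1* and *Prdx1* only.

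*Prdx1* has processed pseudogenes that share its sequence, and RSEM divides reads that match several genes. *Gm21399* was 98.3% identical over 597 bases and had at most 62.03 counts in a library, and *Gm7204* was 97.5% identical over 597 bases and had at most 121.84. *Prdx1* had at least 43240 normalized counts in each library. *Gpx4* has near-identical copies in the annotation used here, *Gpx4-ps2* among them, but these are not among the genes of the deposited counts.

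Selenium enters *Gpx4* and *Txnrd1* as selenocysteine, read from a TGA codon that otherwise ends translation. The coding sequence around it is shown because these genes share that step. The step belongs to translation, which these data do not measure. The codon is in capitals, and the letters come from the GENCODE transcripts.
Gpx4, chr10:80054737-80054739, plus strand, TGA codon: atcgtcaccaacgtggcctcgcaaTGAggc
Txnrd1, chr10:82896037-82896039, plus strand, TGA codon: ggagacatcctccagtctggctgcTGAggt

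The pairs differed from one another. Ratios are CD1d-KO over WT on log2 CPM, the log of counts scaled to normalized library totals. The median log2 ratio of the 8 target genes was -0.51 in pair 1, 0.03 in pair 2, -0.57 in pair 3 and -0.34 in pair 5. For all tested genes the median was between -0.01 and 0.01 in each pair. *Cd1d1* itself had a log2 ratio of -0.16 in pair 1, against -5.82, -5.62 and -5.53 in pairs 2, 3 and 5. Pair 1 therefore does not set cells with *Cd1d1* RNA against cells without it, although its targets were lower as in pairs 3 and 5. Pair 5 had all 8 targets lower in CD1d-KO. In pairs 1 and 3 the exception was *Gpx4*, with 7 of 8 lower. In pair 2 the counts were even, 4 lower (*Gsr*, *Gpx4*, *Txnrd1* and *Prdx1*) and 4 higher (*Nqo1*, *Gclc*, *Gclm* and *Srxn1*). CD1d-KO replicate 2 was also the library with the lowest summed markers of B cells (114 TPM) and of small peritoneal macrophages and dendritic cells (566 TPM), and the part of these cells was not tested. *Gsr*, *Txnrd1* and *Prdx1* were the targets that were lower in 4 of 4 pairs, pair 1 included, as were 10.1% of all tested genes. The lowest ratio within a pair was that of *Nqo1* in pair 3, at -0.94.

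**Figure D4:**
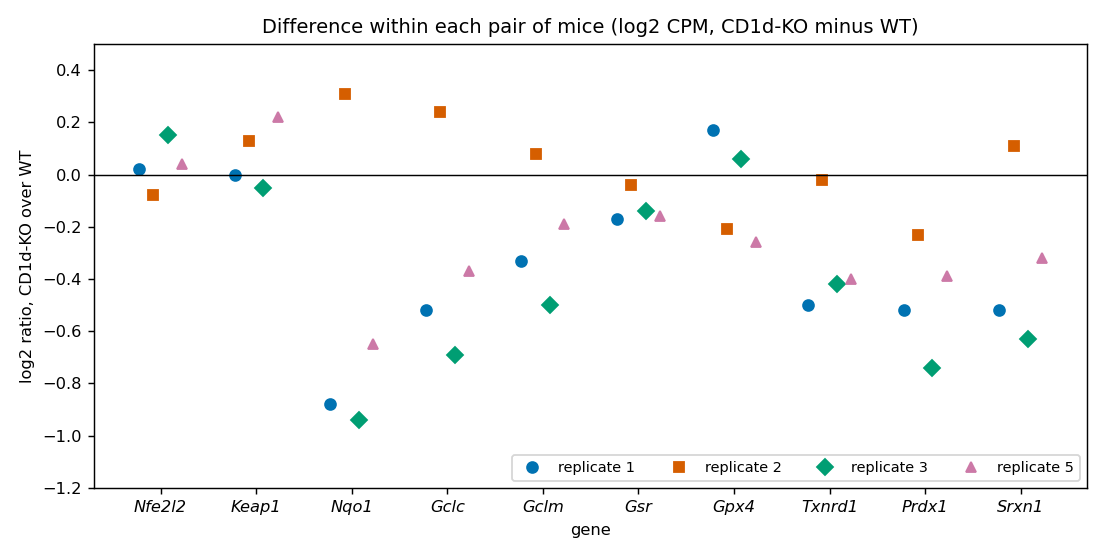
Log2 ratio of CD1d-KO over WT within each pair of mice, 1 symbol per pair and gene. In pair 1 both libraries held *Cd1d1* RNA. Pair 2 (squares) lies above the other pairs for *Nqo1* and *Gclc*, at 0.31 and 0.24, where pairs 1, 3 and 5 are between -0.94 and -0.37.

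The members could also be compared over the mice within each genotype, and over all 8 libraries. In WT, replicates 1 and 3 were both above replicates 2 and 5 for *Gclc*, *Gclm*, *Txnrd1*, *Prdx1* and *Srxn1*. *Nfe2l2* and *Keap1* did not share this order, with WT replicate 1 lowest for both. Within CD1d-KO the order was another one. Replicate 2 was highest there for *Gclc*, *Txnrd1*, *Prdx1* and *Srxn1*, and replicate 1 for *Gclm*. Within WT the highest library was 1.27 to 1.53 times the lowest for each of the 10 genes, and within CD1d-KO 1.11 (*Prdx1*) to 2.48 times (*Nqo1*). The likeness of a gene to *Nfe2l2* was taken as the root mean square difference of log2 CPM, centred on each gene's mean, over the 8 libraries. The nearest genes were *Rps13-ps2* (0.044), *Phlpp2* (0.055), *Klf11* (0.056), *Sav1* (0.058) and *Atp6v1g1* (0.058), where the median over all tested genes was 0.364. *Keap1* was at 0.137, rank 199 by likeness. The 8 targets were at 0.312 (*Gpx4*) to 0.636 (*Nqo1*), with *Gpx4*, *Gclm* and *Txnrd1* below the median and 5 above it.

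The files also give an effective length for each gene, which RSEM weights by the abundance of its transcripts, so that it moves when transcripts of unlike length change their shares. For *Nqo1*, *Gclc* and *Txnrd1* it varied by less than 0.1% over the 8 libraries. It varied by 24.7% for *Gpx4*, 17.8% for *Gsr*, 14.3% for *Gclm* and 11% for *Keap1*. *Keap1* was the member whose effective length was shorter for CD1d-KO within 4 of 4 pairs (2880 to 3081 bases in WT and 2776 to 2971 in CD1d-KO, with overlap). No test was made of these lengths.

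The other genes of the pathway were taken as 8 lists of redox genes, 135 genes in all, of which 123 were tested. Some genes are on more than one list. With edgeR 0 of them were called in either direction, against 0.0383% of all tested genes. DESeq2 called *Sesn2* and *Chac1*, both higher in CD1d-KO, against 0.873% of the genes to which it gave an adjusted p. The 14 genes of NRF2 control, such as the KEAP1 partner CUL3, the small MAF proteins and the repressor BACH1, had a median log2 fold change of 0.00, with 7 below 0, and at an unadjusted p under 0.05 there was 1 higher and 0 lower. *Cul3* (-0.02, SE 0.07), *Mafg* (-0.02, SE 0.08) and *Bach1* (-0.06, SE 0.08) were near equal between the genotypes. *Nfe2l1*, which encodes the related factor NRF1, was higher in CD1d-KO in 4 of 4 pairs (log2 fold change 0.20, SE 0.08, edgeR adjusted p = 0.329).

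Among 27 other NRF2 targets, 25 were tested, and 22 of these 25 (88%) had a log2 fold change below 0, against 49% of all tested genes. The median was -0.19. At an unadjusted p under 0.05, 8 were lower and 0 higher, where the shares over all tested genes were 5.01% and 7.35%. In 4 of 4 pairs 8 were lower, against 10.1% of all tested genes. These counts include pair 1, and the list was chosen with earlier results of these data known. *Cbr3*, a carbonyl reductase, had 471, 399, 358 and 311 normalized counts in WT replicates 1, 2, 3 and 5 and 279.8, 326, 199.7 and 233 in CD1d-KO (log2 fold change -0.57, SE 0.11, edgeR adjusted p = 0.101, DESeq2 adjusted p = 0.0218). *Ephx1*, microsomal epoxide hydrolase, differed by nearly the same amount in each pair, with log2 ratios of -0.29 to -0.42 (log2 fold change -0.38, edgeR adjusted p = 0.0582 and 0.00165 from DESeq2). *Gstm1*, a glutathione transferase, was at -0.36 (edgeR adjusted p = 0.188). Without replicate 1 the log2 fold change was -0.51 for *Cbr3*, -0.37 for *Ephx1* and -0.34 for *Gstm1*. The edgeR adjusted p was then 0.32, 0.243 and 0.475. *Hmox1*, the inducible heme oxygenase, was at -0.24 (SE 0.12, edgeR adjusted p = 0.461) and *Slc7a11*, the cystine carrier that feeds glutathione synthesis, at -0.15 (SE 0.10, edgeR adjusted p = 0.593). Both had CD1d-KO above WT in pair 2 and below it in the other 3 pairs, which was also the case for *Nqo1*, *Gclc*, *Gclm* and *Srxn1*.

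The thioredoxin and peroxiredoxin list, 21 tested genes beside the members, was centred near 0 with a median of -0.04, 1 gene higher and 0 lower at an unadjusted p under 0.05. *Txn1*, thioredoxin itself and the substrate of TXNRD1, was at 0.02 (SE 0.07, edgeR adjusted p = 0.930). *Sesn2*, a sestrin of the stress response, stood out at 0.66 (SE 0.10, edgeR adjusted p = 0.0435, and called by DESeq2 with 4.40e-05). Of the 21 tested genes of glutathione synthesis and use, 13 were below 0 and the median was -0.12, with 2 higher and 3 lower at an unadjusted p under 0.05. *Gss*, glutathione synthetase, had 1204, 735, 876 and 775 normalized counts in WT and 642, 909, 374 and 624 in CD1d-KO replicates 1, 2, 3 and 5. Like *Gclc*, it was higher in CD1d-KO in pair 2 alone (log2 fold change -0.53, SE 0.22, edgeR adjusted p = 0.393), and its log2 fold change was -0.81 without replicate 2 and -0.31 without replicate 3. *Chac1*, which degrades glutathione, was the gene furthest above 0 in these lists, at 1.22 (SE 0.14, edgeR adjusted p = 0.0230, and called by DESeq2 with 2.86e-07). It was higher in CD1d-KO in 4 of 4 pairs. Without replicate 1, the pair with *Cd1d1* RNA in both genotypes, the edgeR adjusted p was 0.0817 for *Chac1* (log2 fold change 1.13) and 0.154 for *Sesn2* (0.62), and without replicate 3 or 5 both were above 0.05 as well (0.0706 and 0.162 for *Chac1*, 0.123 and 0.192 for *Sesn2*). *Gpx7* was higher in each CD1d-KO library (45.8 to 58.3 normalized counts) than in each WT library (24.7 to 38.7), as were 1.04% of all tested genes, with a log2 fold change of 0.73 and an adjusted p of 0.255 from edgeR.

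The 10 tested genes of superoxide and hydrogen peroxide handling had a median of 0.02, with 1 higher and 2 lower at an unadjusted p under 0.05. *Hvcn1*, a proton channel, was at -0.29 (edgeR adjusted p = 0.212) and *Rac2* at 0.20 (edgeR adjusted p = 0.359). *Sod2* (0.07, SE 0.08) and *Cat* (-0.17, SE 0.07, edgeR adjusted p = 0.406) did not pass either.

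The selenoprotein list (23 tested genes) had a median of 0.03, with 2 higher and 1 lower at an unadjusted p under 0.05. *Gpx1*, the cytosolic selenoenzyme, was at -0.39 (SE 0.13, edgeR adjusted p = 0.254), *Selenow* at 0.33 (edgeR adjusted p = 0.191) and the selenium-releasing enzyme *Scly* at 0.22 (edgeR adjusted p = 0.405). The 12 genes of lipid peroxide defence and ferroptosis had a median of -0.09, with 1 higher and 0 lower at this level. *Aifm2*, which encodes the GPX4-independent ferroptosis suppressor FSP1, was at 0.28 (SE 0.08, edgeR adjusted p = 0.212), higher in 4 of 4 pairs. NADPH feeds both thiol systems, and the 11 tested genes of its supply had a median of -0.15, with 2 higher and 2 lower. *Idh1* was lower (-0.40, SE 0.07, edgeR adjusted p = 0.0728) and *Nnt* higher (0.56, SE 0.09, adjusted p = 0.0611) in 4 of 4 pairs, and *Mthfd2* was at 0.46 (SE 0.08, edgeR adjusted p = 0.0872). DESeq2 gave these 3 genes adjusted p-values of 0.00106, 0.00650 and 0.00229, all with folds under 1.5. Without replicate 1 the edgeR adjusted p was 0.165 for *Idh1*, 0.247 for *Nnt* and 0.277 for *Mthfd2*.

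**Figure D5:**
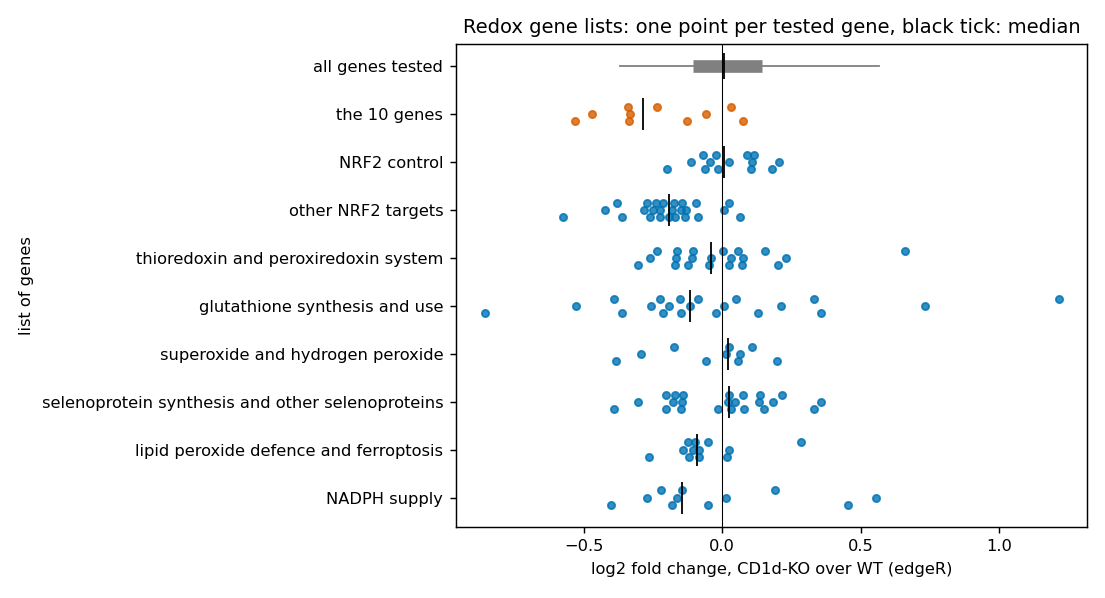
Log2 fold change (edgeR, CD1d-KO over WT) of each tested gene in the redox lists, with a black tick at the median of each list. The top bar gives all tested genes (box from the 25th to the 75th percentile, line from the 5th to the 95th). The 10 genes have a median of -0.29 and the other NRF2 targets of -0.19, and the genes of NRF2 control of 0.00.

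Totals per library were 13698864 to 19059432 counts on genes. Macrophage identity was checked by markers: *Adgre1* (F4/80) had 10103 to 14182 and *Gata6*, which defines large peritoneal macrophages, 347 to 779 normalized counts over the 8 libraries. The 12 markers of large peritoneal macrophages summed to 27749 to 32483 TPM in WT and 23720 to 32617 in CD1d-KO, and 5 of 12 had an unadjusted p under 0.05, against 12.4% of all tested genes, while 0 of 12 were called. Of these 5, *Timd4* (0.39), *Selp* (0.43), *Vsig4* (0.38) and *Marco* (0.30) were higher and *Cd5l* (-0.46) was lower in CD1d-KO on the log2 scale. Summed over 8 B cell markers the level was 166 to 509 TPM in WT and 114 to 859 in CD1d-KO, and 0 of 8 had an unadjusted p under 0.05. The 10 markers of small peritoneal macrophages and dendritic cells summed to 845 to 1450 TPM in WT and 566 to 1772 in CD1d-KO, and of the 9 tested 1 had an unadjusted p under 0.05 (*Itgax*, log2 fold change -0.48). The 7 neutrophil markers summed to 11.2 to 14.8 TPM in WT and 18.4 to 24.8 in CD1d-KO, with only *S100a8* high enough to be tested (log2 fold change 0.83, edgeR adjusted p = 0.101) and *S100a9* at 1.05 normalized counts or less. The 7 mast cell markers summed to 22.6 to 83.7 TPM in WT and 55.4 to 133 in CD1d-KO, with *Hdc* at a log2 fold change of 0.81 (edgeR adjusted p = 0.0555, DESeq2 adjusted p = 9.14e-06). Markers of T and NK cells (at most 3.56 TPM in sum), eosinophils (at most 7.14) and mesothelial cells (at most 1.23) were near 0, and *Ncr1* (NK cells), *Ly6g* (neutrophils), *Ear6* (eosinophils) and *Krt19* (mesothelium) had no count in any library. The part of these cells in the values of the NRF2 genes was not tested.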

How the data were processed

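The authors trimmed single-end reads with Cutadapt, aligned them with STAR 2.5.2a and assigned them to genes of GRCm38 (Ensembl) with RSEM 1.3.0. The deposited expected counts are reads per gene and are not normalized; the deposited TPM values and effective lengths come from the same RSEM runs. Every sample was used, with genotype and replicate number taken from the titles. Counts divided among near-identical genes depend on each other.

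Expected counts were rounded, filtered with filterByExpr and TMM-normalized in edgeR 4.0.16 (R 4.3.3). The quasi-likelihood test held replicate number and genotype, the covariates of the study, and p-values were adjusted by Benjamini-Hochberg over 13040 genes. The calls needed adjusted p-values below 0.01 with folds over 1.5, as in the study. Standard errors were taken as the log2 fold change over the root of the F statistic. Same-numbered libraries correlated across genes, after removal of the genotype means, with 0.487, 0.387, 0.505 and 0.207 for numbers 1, 2, 3 and 5; in number 5 another library reached 0.22. No library copied another (smallest chi-square per degree of freedom 14.2 over 28 library pairs). The labels do not say how mice were paired. With the replicate block, p-values measure how the difference between genotypes varies over these 4 pairs.

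Symbols and coordinates are from GENCODE M21 (GRCm38), which held 48349 of the 48795 IDs. Copies were searched with blastn, promoters taken from RefSeq, and log2 CPM used a prior count of 2. Named genes were the 10 members, *Cd1d1* and *Cd1d2*, 11 fixed pathway genes, the 5 genes nearest to *Nfe2l2* in likeness and, per list, the 3 or fewer highest and lowest by fold among those with an unadjusted p under 0.05 and one sign in 4 of 4 pairs. The markers *Adgre1*, *Gata6*, *S100a8*, *S100a9*, *Hdc*, *Itgax* and those of large macrophages were named after their values were seen. Members and lists were chosen with earlier results of these data known. Alternatives were DESeq2 1.42.0, limma-trend (limma 3.58.1) on log2(TPM + 1), other scalings, filters and thresholds, no replicate block, and libraries left out. Fits were tested on simulated data. There edgeR recovered 61 of 100 genes changed by 1 on the log2 scale and 83 of 100 changed by 2, with 6 false calls. Changes as small as those of the targets were not simulated. One gene that the rule names is not reported here.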

Additional observations from a re-analysis of the deposited data

Results flagged for a closer look

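In a test for a single distant value, run on 76 groups of 4 libraries, 6 values stood apart, from 3 libraries, and chance alone gives about 1 in 20 groups. WT replicate 1 had 412 normalized counts of *Nqo1*, against 287 to 301 in the other WT libraries. CD1d-KO replicate 1 had 1572 of *Bach1*, against 1378 to 1408. WT replicate 3 stood apart for 3 genes: *Chac1* at 404 against 62.2 to 114, *Sesn2* at 1395 against 465 to 569.6, and *Mafg* at 5695 against 4689 to 4832. Within CD1d-KO, replicate 3 was also highest for *Chac1* (681 against 167 to 307) and *Sesn2* (1871 against 686 to 1091), but not for *Mafg*. *Cd1d1* in the library labelled CD1d-KO replicate 1 was at 60.7 normalized counts, where its group otherwise had 0 to 1.14.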

How the results depend on the processing

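The count of called members was 0 under every alternative run, and their median log2 fold change stayed below 0, from -0.39 without replicate 2 to -0.18 without replicate 3. With each replicate left out in turn it ran from -0.39 to -0.18. The smallest adjusted p of a member was 0.137 in the reported test (*Prdx1*) and ranged from 5.32e-04 (DESeq2) to 0.997 (no replicate block) over the alternatives. *Prdx1* was at 0.00152 without a filter on counts, where 25377 genes were tested. Without replicate 5, *Gpx4* had a log2 fold change of 0.01, and 7 of 8 targets were below 0. Leaving out each replicate gave -0.14 to 0.01 for *Gpx4*, -0.01 (without replicate 3) to 0.07 for *Nfe2l2*, -0.05 to 0.01 (without replicate 1) for *Cul3* and -0.08 to 0.01 (without replicate 5) for *Mafg*, and *Cul3* and *Mafg* were at 0.00 and 0.01 with no replicate block and without CD1d-KO replicate 1. The cause of these changes was not tested. Over all genes, 5 were called in the reported test, 103 by DESeq2, 236 without a filter, 53 at an adjusted p under 0.05 without a fold threshold, and 3 each with no replicate block and with limma-trend. Leaving out one replicate gave 3 to 22 calls, the highest without replicate 2 and the lowest without replicate 3 or 5. In the thioredoxin list (*Sesn2*) and in the glutathione list (*Chac1*), 1 gene each was called by DESeq2 and without a filter, and 1 each had an adjusted p under 0.05. The replicate block changed no call of a member.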
